A study of Mus musculus with 2 samples.

Results

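The SMAD and ID genes described here were taken by name: Smad1, Smad2, Smad3, Smad4, Smad5, Smad6 and Smad7, and Id1, Id2 and Id3. They are 10 of the 43346 Ensembl genes in the tables, 7 SMAD and 3 ID genes, and all 10 were found. The RNA came from MEL cells, a mouse erythroleukemia line that resembles early red cell precursors and makes hemoglobin when given dimethyl sulfoxide (DMSO). The study had 1 group, MEL cells in 2% DMSO for 5 days, with 2 polyA RNA-seq libraries numbered as biological replicates 1 and 2. The labels give both of them 1 cell sample identifier, so differences between them may be technical, and the line is 1 cell line. No untreated cells were analysed here, so each value is a level in treated cells, not a response to DMSO, and nothing was tested between conditions. Replicate 1 held 26149725 estimated reads and replicate 2 held 14149299. All 10 erythroid markers, such as Alas2 and Klf1, were at or above 1 TPM (a transcript level scaled by length and library) in both libraries, against 2 of 25 markers of macrophages, fibroblasts, endothelial cells, lymphocytes and mast cells. Those 2 were the macrophage marker Cd68 (3.17 and 5.66 TPM in replicates 1 and 2) and the endothelial marker Pecam1, which some blood cells also carry (5.59 and 6.06 TPM).

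SMAD proteins carry the signal of TGF-beta, activin and BMP receptors into the nucleus. Activated receptors phosphorylate the receptor SMADs, of which Smad1, Smad5 and Smad9 mostly serve BMP receptors and Smad2 and Smad3 mostly serve TGF-beta and activin receptors; these join Smad4, the common partner, and bind DNA. Smad6 and Smad7 are inhibitory SMADs that damp the pathway and are themselves induced by it. Id1, Id2 and Id3 are classic BMP target genes in many cell types: their proteins have a helix-loop-helix domain but no DNA-binding region, and they hold E proteins away from bHLH factors. In red cell precursors the bHLH factor Tal1 works with E proteins, and BMP signalling through SMADs is known from stress erythropoiesis in the mouse.

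The members are related in sequence, so 2 stretches of coding sequence show how far reads can tell them apart where they are most alike. Both were picked as the 60-base coding stretches with the most identical bases, not as typical ones. The first was picked on Id1 and Id2, with Id3 then aligned to it, and the second on Smad5 and Smad1. They are from the GENCODE M21 transcripts on mm10, printed 5′ to 3′, with bases shared by all aligned genes in capitals. The first set lies in the start of the helix-loop-helix coding region of the ID genes, where 38 of 60 bases were the same in Id1, Id2 and Id3.
Id1-201 (chr2:152736512-152736571, plus strand, coding bases 172 to 231): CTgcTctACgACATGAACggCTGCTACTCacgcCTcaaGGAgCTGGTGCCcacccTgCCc
Id2-201 (chr12:25095849-25095908, minus strand, coding bases 103 to 162): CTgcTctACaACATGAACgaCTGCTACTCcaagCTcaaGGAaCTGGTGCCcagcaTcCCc
Id3-201 (chr4:136143996-136144055, plus strand, coding bases 118 to 177): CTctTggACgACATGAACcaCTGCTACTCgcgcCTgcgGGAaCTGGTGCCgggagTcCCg
The second set lies near the start of the coding sequence of the BMP-class SMADs, where 52 of 60 bases were the same.
Smad5-201 (chr13:56723669-56723728, plus strand, coding bases 76 to 135): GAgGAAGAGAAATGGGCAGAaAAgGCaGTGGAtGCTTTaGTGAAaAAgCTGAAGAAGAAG
Smad1-202 (chr8:79372052-79372111, minus strand, coding bases 73 to 132): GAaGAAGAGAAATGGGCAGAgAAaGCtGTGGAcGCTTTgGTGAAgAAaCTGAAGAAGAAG
The deposited effective lengths are those of 45-base fragments. Between 1 complete coding sequence of each gene, the longest run of identical bases was 24 bases over 21 pairs of SMAD genes and 15 bases over 3 pairs of ID genes, so 0 pairs shared a coding run of 45; untranslated ends were not compared. The deposited posterior SD of the gene count was 0 for 9 of the members in both libraries and 0.38 and 0.57 reads for Id2. For those 9 genes the deposited gene counts carry no uncertainty of assignment, while Id2 has 1 transcript in the tables and the source of its small uncertainty was not identified.

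Id1 was the highest of the members, and Smad4 the highest SMAD gene. Id1 had 76.3 TPM in replicate 1 and 205 TPM in replicate 2, a mean of 141 ± 91.0 TPM (SD, n = 2), which put it at the 97.4th percentile of 21474 protein-coding genes. Smad4 averaged 68.3 ± 2.74 TPM, at the 93.9th percentile. Below them came Smad2, Smad3, Smad5, Smad6, Smad7, Id2, Smad1 and Id3 in that order of mean TPM. The ranges of the 2 libraries overlapped for 1 pair of neighbours in this order, Smad3 and Smad5. The median over the members was 10.5 TPM, against 0.6 TPM over protein-coding genes. Of the members, 8 of 10 reached 1 TPM in both libraries, where 45.5% of protein-coding genes did, and the 2 that did not were Smad1 and Id3. In RNA from bulk cells, fewer cells with a transcript and less of it per cell cannot be told apart.

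**Figure D1:**
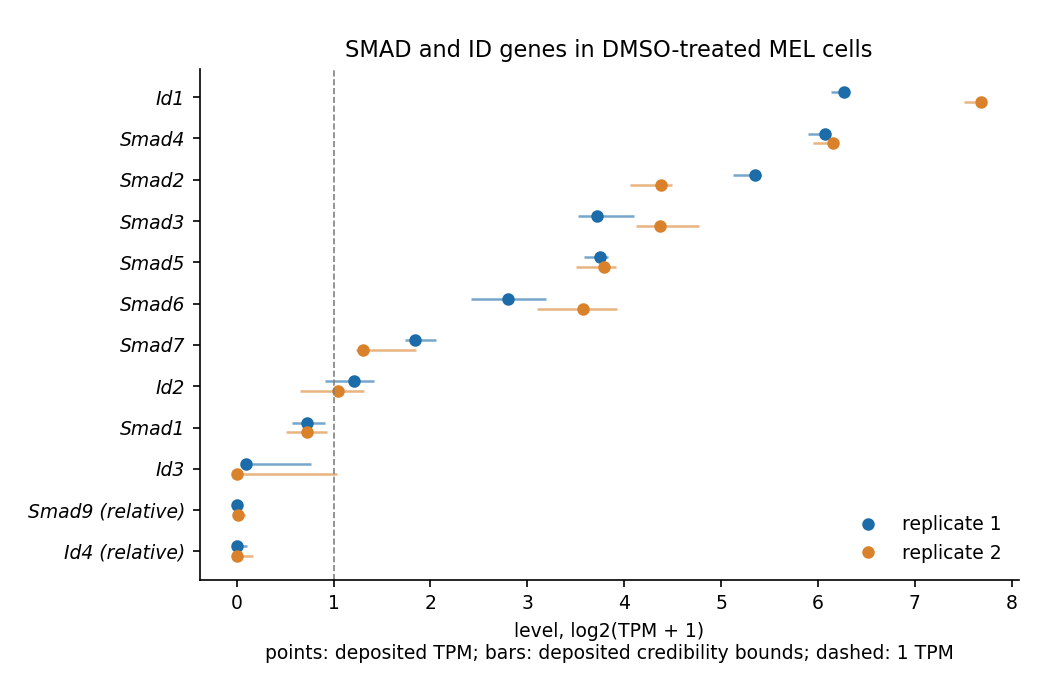
Level of each member and of their relatives Smad9 and Id4 in replicate 1 and replicate 2, as log2(TPM + 1). Points are deposited TPM and bars the deposited credibility bounds, which surround the posterior mean and so need not hold the point; Id1 stands apart between the libraries at 76.3 and 205 TPM, while Smad4, Smad5 and Smad1 nearly coincide.

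Among the BMP-class receptor SMADs, Smad5 carried most of the RNA. Smad5 (ENSMUSG00000021540, chr13:56703010-56742377, plus strand) had 12.4 TPM from 938 reads in replicate 1 and 12.8 TPM from 528 reads in replicate 2. Smad1 (ENSMUSG00000031681, chr8:79338395-79399518, minus strand) had 0.65 TPM in each, from 48 and 27 reads. Both genes were level between the libraries by TPM, and Smad1 made up 4.97% and 4.82% of their summed TPM. On transcripts with a complete coding sequence alone, Smad1 was 13.3% and 13.4% of the sum. Smad9, the other BMP-class member of the family, had 0 reads in replicate 1 and 1 read in replicate 2.

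By deposited TPM, most of Smad5 sat on a transcript without an annotated coding sequence. Smad5-206 stops inside the intron after exon 5 and is annotated as a retained intron; Smad5-201 splices on and codes for the whole protein. The pair is shown because the bases after the exon are what separates them. Exon 5 ends in lower case at chr13:56733052-56733071 (plus strand), and capitals mark what follows, exon 6 at chr13:56735800-56735829 in Smad5-201 and the intron at chr13:56733072-56733101 in Smad5-206.
Smad5-201: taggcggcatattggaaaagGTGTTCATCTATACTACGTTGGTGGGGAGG
Smad5-206: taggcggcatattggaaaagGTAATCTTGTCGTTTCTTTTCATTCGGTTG
Smad5-206 had 8.22 and 7.90 TPM in replicates 1 and 2, and Smad5-201 had 4.22 and 4.20 TPM. By reads the order was the opposite: Smad5-206 held 28.7% and 27.7% of the gene's reads and Smad5-201 held 71.3% and 71.2%. Smad5-206 is 1398 bases long and Smad5-201 is 6584, and TPM divides by length. Of 1354 possible 45-base words of Smad5-206, 89 occur in no other Smad5 transcript. Its deposited bounds were 4.49 to 8.41 TPM in replicate 1 and 0.29 to 7.59 TPM in replicate 2. That of replicate 2 overlaps the bounds of Smad5-201, 3.20 to 4.18 TPM, so the order of both transcripts was not settled in replicate 2. By the deposited posterior means, Smad5-206 held 54.4% of the gene in replicate 1 and 35.0% in replicate 2. Smad5-204, which also has no annotated coding sequence and had 0 estimated reads, held 10.2% and 24.1% on that measure.

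The TGF-beta-class SMADs were both present. Smad3 (ENSMUSG00000032402, chr9:63646767-63757994, minus strand) had 12.2 TPM from 651 reads in replicate 1 and 19.7 TPM from 560 reads in replicate 2. Smad3-201, Smad3-205 and Smad3-202 begin with different first exons, printed in capitals, that join the same next exon in lower case at chr9:63667903-63667922 (minus strand). The capitals are at chr9:63757472-63757499 for Smad3-201, chr9:63711916-63711943 for Smad3-205 and chr9:63751050-63751077 for Smad3-202. They are shown because the first exons are among the bases that tell these models apart. Smad3-205 is annotated with 701 coding bases and as incomplete, and Smad3-201 with 1275 and as complete. The first exon is not what makes Smad3-205 incomplete. That model stops at chr9:63654799, short of the end of Smad3-201 at chr9:63646767.
Smad3-201: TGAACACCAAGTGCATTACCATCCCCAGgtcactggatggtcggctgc
Smad3-205: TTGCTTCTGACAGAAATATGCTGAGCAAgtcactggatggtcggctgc
Smad3-202: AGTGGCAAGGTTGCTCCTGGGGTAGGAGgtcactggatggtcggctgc
Smad3-205 had 6.39 and 9.04 TPM in replicates 1 and 2, Smad3-201 had 4.32 and 6.54 TPM, and Smad3-202 had 0.72 and 4.12 TPM. By reads the full-length Smad3-201 held 81.1% and 80.6% of the gene. The bounds of Smad3-205, 1.5 to 7.41 TPM and 0.484 to 9.89 TPM, enclose those of Smad3-201, 3.74 to 4.51 TPM and 5.40 to 6.60 TPM, in both libraries. The bounds of Smad3-202, 7.68e-05 to 5.17 TPM and 0.887 to 12.4 TPM, enclose those of Smad3-201 too. By the deposited posterior means Smad3-205 held 34.3% and 25.6% of the gene, Smad3-201 30.95% and 28.3%, and Smad3-202 17.6% and 30.8%. Which of these transcripts was the most abundant was therefore not settled at this depth.

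Smad2 was spread over transcripts whose shares differed between the libraries more than those of Smad3 or Smad5. Smad2 (ENSMUSG00000024563, chr18:76241580-76310963, plus strand) had 39.8 TPM from 887 reads in replicate 1 and 19.9 TPM from 414 reads in replicate 2. Smad2-204, a coding model of 614 bases that is annotated as incomplete, had 17.9 TPM in replicate 1 and 0 TPM in replicate 2, where the upper bound was 1.30 TPM. Smad2-206, also incomplete, had 11.3 and 2.36 TPM. Smad2-207, annotated with 175 coding bases, had 6.14 and 9.17 TPM. Smad2-205, the complete coding transcript with the most reads, had 4.37 and 7.83 TPM and 33.6% and 72.9% of the gene's reads. Its model has 2857 bases in the deposited tables and 8089 in GENCODE M21, so its TPM and shares, and the mean length of the gene, are those of the shorter model, while the coordinates are from M21. The gene-level TPM of Smad2 was 2.00 times as high in replicate 1, while its reads after TMM scaling were 1.38 times as high there. Scaled to the total of each library alone, its reads were closer, at 33.9 CPM in replicate 1 and 29.3 CPM in replicate 2. The deposited mean length of the gene was 965 bases in replicate 1 and 1565 bases in replicate 2, and TPM divides by it.

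Exon 3 of Smad2 is a known alternative exon, whose insert keeps the common form of the protein from binding DNA directly. It is 90 bases long (chr18:76286860-76286949) and is part of 3 of the gene's 7 transcripts in the tables. Transcripts with exon 3 held 39.5% of Smad2 TPM in replicate 1 and 51.3% in replicate 2. By reads the shares were 62.3% and 80.1%. The models without it start before its place and end after it, so none stops short of the exon, though some are annotated as incomplete. Reads were split by estimation among overlapping transcripts, so these shares are not directly measured inclusion levels.

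Smad4, the common partner, held about as much TPM as the other SMAD genes together. Smad4 (ENSMUSG00000024515, chr18:73639009-73703780, minus strand) had 66.4 TPM from 2021 reads in replicate 1 and 70.2 TPM from 1144 reads in replicate 2. Its share of the summed TPM of Smad1 to Smad7 was 47.4% and 51.8%, and its share of their reads 41.2% and 39.8%. Most of that TPM lay on RNAs without an annotated coding sequence. Smad4-205, a processed transcript of 917 bases with 8 exons, had 29.1 and 58.2 TPM. Smad4-203, another processed transcript of 430 bases, had 22.5 TPM in replicate 1 and 2.11 TPM in replicate 2. Smad4-201, which codes for the whole protein, had 14.8 and 8.90 TPM. By reads Smad4-201 held 59.2% in replicate 1 and 35.6% in replicate 2, so it was first in replicate 1 and behind Smad4-205, with 60.8%, in replicate 2.

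Few bases separate these transcripts. Of 873 possible 45-base words of Smad4-205, 41 occur in no other Smad4 transcript, which is 4.70%, while 40.1% of those of Smad4-201 do. The deposited bounds of Smad4-205 were 24.4 to 30.3 TPM and 48.0 to 57.3 TPM. They lay above those of Smad4-201, 12.8 to 14.9 TPM and 6.90 to 9.22 TPM, in both libraries. In replicate 1 the bounds of Smad4-203, 17.0 to 25.4 TPM, overlapped those of Smad4-205. Counting complete coding transcripts alone, Smad4 had 14.8 and 9.90 TPM and remained the highest SMAD gene by mean, at 12.3 ± 3.45 TPM (SD, n = 2). In replicate 2 alone it was then 9.90 TPM, beside 8.34 TPM for Smad2.

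**Figure D2:**
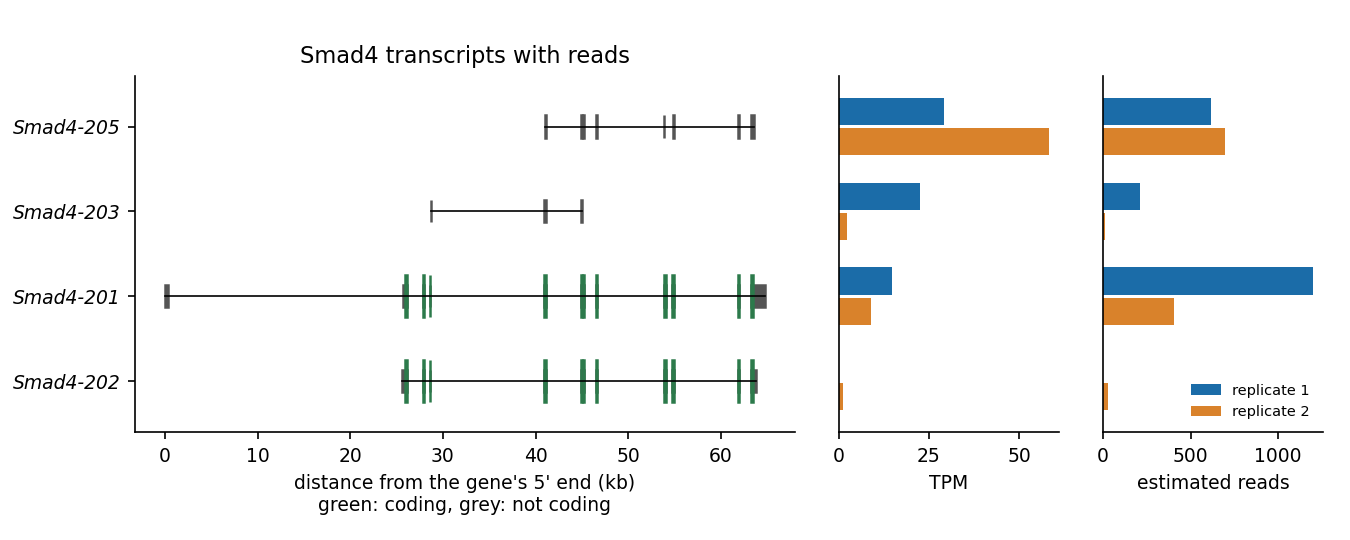
Exons of the 4 Smad4 transcripts with reads, by distance in kb from the 5′ end of the gene (tall green blocks are coding, low grey blocks are not), with bars for TPM and estimated reads in replicates 1 and 2. Smad4-205 shares its exons with Smad4-201 almost throughout and leads by TPM in both libraries, 29.1 and 58.2 TPM, whereas Smad4-201 has more reads in replicate 1, 1196 against 614.

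Other members also had much of their TPM outside complete coding transcripts. Transcripts were called complete when they have a complete coding sequence of at least 50% of the longest of the gene, a measure chosen after the data were seen. Among the 8 members at or above 1 TPM, 5 had under 50% of their TPM on such transcripts in both libraries, where 22.9% of protein-coding genes at that level did. These were Smad2, Smad3, Smad4, Smad5 and Smad6. By estimated reads the count was 0 of 8, with 12.3% of genes. In a single library, Smad2 was under 50% by reads in replicate 1, at 33.6%, and Smad4 in replicate 2, at 38.2%. Id1, Id2 and Smad7 had all of their TPM on complete coding transcripts. For Id1 this rests on the 50% limit, since Id1-201 has 444 coding bases and Id1-202 has 504. At a limit of 90% the count by TPM was 6, with Id1 added. The median protein-coding gene at this level had 93.3% of its TPM on complete coding transcripts in replicate 1 and 92.5% in replicate 2.

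**Figure D3:**
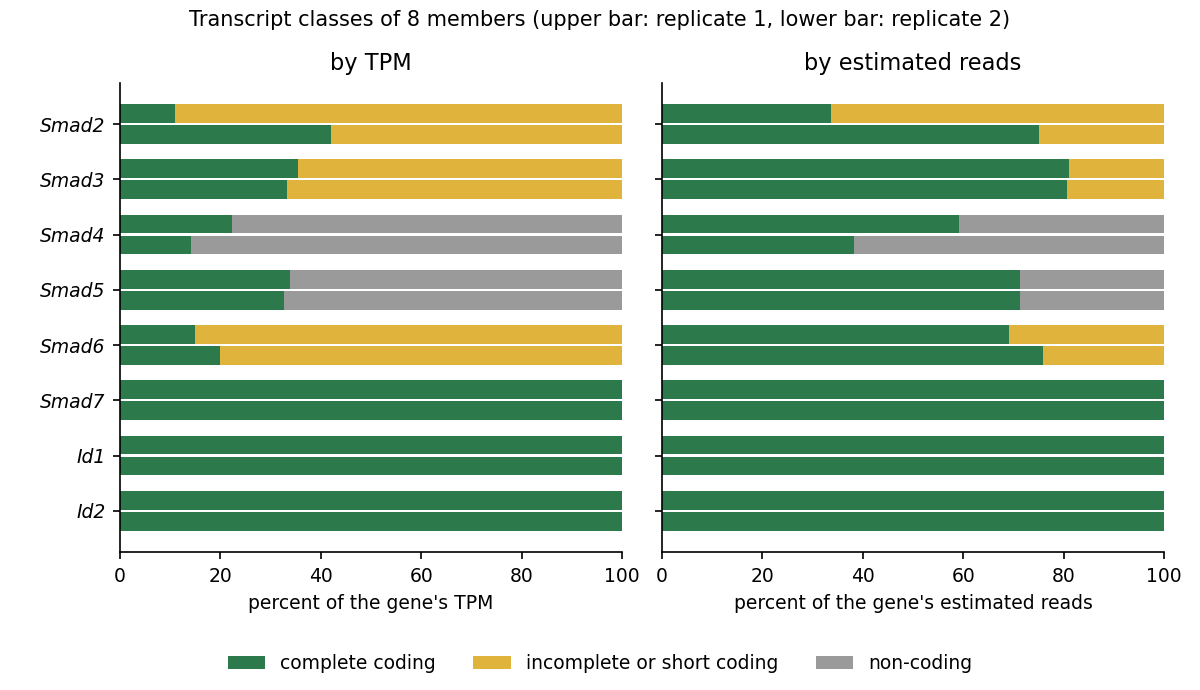
Percent of each gene's TPM (left) and of its estimated reads (right) on complete coding transcripts, on incomplete or short coding transcripts and on non-coding transcripts, for the 8 members at or above 1 TPM in both libraries, with replicate 1 above replicate 2. For Smad3 the complete share is 35.4% and 33.2% by TPM and 81.1% and 80.6% by reads.

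The balance of the receptor SMADs followed the same choice. Smad1 and Smad5 together had 13.1 and 13.5 TPM in replicates 1 and 2, against 52.0 and 39.6 TPM for Smad2 and Smad3 together. The BMP-class sum over the TGF-beta-class sum was 0.252 in replicate 1 and 0.341 in replicate 2. By reads the ratio was 0.641 and 0.570, and on complete coding transcripts 0.560 and 0.326. The TGF-beta class was the higher on each of these measures in both libraries, by a factor that the measure set. Reads are not divided by length, so the read ratio is not a ratio of levels. The deposited mean lengths in replicates 1 and 2 were 3158 and 3046 bases for Smad5 and 3099 in both for Smad1. They were 965 and 1565 bases for Smad2 and 2244 and 2120 bases for Smad3. No receptor SMAD reached the TPM of Smad4 in either library.

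Smad6 was the higher of the inhibitory SMADs by TPM and the lower by reads in replicate 1. Smad6 (ENSMUSG00000036867, chr9:63953076-64022059, minus strand) had 5.96 TPM from 91 reads in replicate 1 and 10.9 TPM from 114 reads in replicate 2. Smad6-203, an RNA model of 273 bases, held 5.07 and 8.73 TPM on 28.1 and 27.4 reads. Its beginning is printed because the whole model lies within the longer transcript: it covers bases 28 to 300 of Smad6-201, whose own coding sequence starts at base 1036. The first 30 bases are at chr9:64022003-64022032 (minus strand), with the start codon of the annotated reading frame in capitals.
Smad6-203: ATGactccgcggcgctcctccgggggccct
None of its 45-base words is unique to it, 0 of 229, so no read can belong to it alone. Smad6-201, which codes for Smad6, had 0.89 and 2.16 TPM and held 69.1% and 76.0% of the gene's reads. Counted on Smad6-201 alone, Smad6 averaged 1.53 ± 0.898 TPM, below the 2.02 ± 0.778 TPM of Smad7. That order rests on replicate 1, at 0.89 TPM for Smad6 and 2.57 TPM for Smad7, and was the opposite in replicate 2, at 2.16 and 1.47 TPM.

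Smad7, which blocks receptor SMADs at the receptor and recruits ubiquitin ligases, lay near the detection limit. Smad7 (ENSMUSG00000025880, chr18:75367529-75395935, plus strand) had 2.57 TPM from 264 reads in replicate 1 and 1.47 TPM from 85 reads in replicate 2. All of its deposited TPM was on Smad7-201, 4278 bases long, so a fair number of reads gave a low TPM. By the deposited posterior means Smad7-201 held 89.1% of the gene in replicate 1 and 68.6% in replicate 2. The inhibitory SMADs together were 6.10% and 9.12% of the SMAD sum by TPM and 7.24% and 6.93% by reads.

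Among the ID genes nearly all RNA was Id1. Id1 (ENSMUSG00000042745, chr2:152736251-152737410, plus strand) rested on 1653 reads in replicate 1 and 2505 in replicate 2, the shallower library. Id2 (ENSMUSG00000020644, chr12:25093799-25097140, minus strand) had 1.31 TPM from 39 reads and 1.07 TPM from 18 reads. Id3 (ENSMUSG00000007872, chr4:136143497-136145755, plus strand) had 2 reads in replicate 1 and 0 in replicate 2, where a count of 0 allows up to 0.212 CPM (reads scaled to the library's total). Id4, the remaining member of the family, had no read in either library. Id1 made up 98.2% and 99.5% of the summed TPM of Id1 to Id3. Id2, like Id1 an antagonist of E proteins, lay just above the 1 TPM limit.

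Id1 has 2 transcripts, which differ by an intron of 226 bases (chr2:152736746-152736971) that Id1-202 keeps. The junction is printed because it is the base for telling spliced from unspliced Id1. Lower case is the end of exon 1 at chr2:152736716-152736745 (plus strand), and capitals are exon 2 at chr2:152736972-152737001 in Id1-201 and the intron at chr2:152736746-152736775 in Id1-202.
Id1-201: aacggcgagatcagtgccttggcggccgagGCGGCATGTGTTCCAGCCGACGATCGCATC
Id1-202: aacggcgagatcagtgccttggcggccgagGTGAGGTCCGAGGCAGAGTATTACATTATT
Id1-201 had 74.8 TPM in replicate 1 and 203 TPM in replicate 2, and Id1-202 had 1.52 and 2.08 TPM. The spliced form thus held 98.0% and 99.0% of Id1 TPM, and the unspliced form 41.2 and 31.9 reads.

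Id1 was also the furthest apart between the libraries of the 9 members with a mean of at least 10 reads. After TMM scaling of the reads its log2 ratio of replicate 1 over replicate 2 was −1.23, with a 95% counting interval of −1.32 to −1.14, so it was 2.35 times as high in replicate 2. Of the 9 members with a mean of at least 10 reads, 0 were at least 2-fold higher in replicate 1, where 16.5% of genes were, and 1 (Id1) was at least 2-fold higher in replicate 2, where 15.0% were. Smad7 was the nearest to the limit in the other direction, at a log2 ratio of 0.99 (0.64 to 1.37). Smad6 was at −0.95 (−1.37 to −0.55), Smad3 at −0.42 (−0.58 to −0.25) and Smad2 at 0.46 (0.29 to 0.64). Id2 was at 0.46 (−0.36 to 1.37), and Smad1, Smad4 and Smad5 lay at 0.19 each. Scaling by total reads shifted the log2 ratios of all genes by a median of −0.25; Smad1, Smad4 and Smad5 turned to −0.05, −0.07 and −0.06, so their direction hangs on the scaling. The intervals cover counting error alone, and with 1 library on each side there is no test.

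The libraries differed by GC content across the transcriptome, and the members lay along that trend to different degrees. Across the 8893 protein-coding genes whose mean was 100 reads or more, GC content and the log2 ratio had a Spearman rho of −0.78, a description over genes of the same libraries. Id1 transcripts were 55.2% GC, where the trend was −0.60, and Id1 was at −0.63 with the trend subtracted. Smad6 was 66.5% GC with a trend of −1.41, and lay at 0.46 after subtraction. Smad7 was 56.9% GC with a trend of −0.76, and lay at 1.75, which made it the 1 member past 2-fold on that scale. Subtraction also turned the sign of Smad3 to 0.10, of Smad5 to −0.32 and of Id2 to −0.43. Smad4, with 54.1% GC, lay at 0.66. The part of GC content in these differences was not tested.

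**Figure D4:**
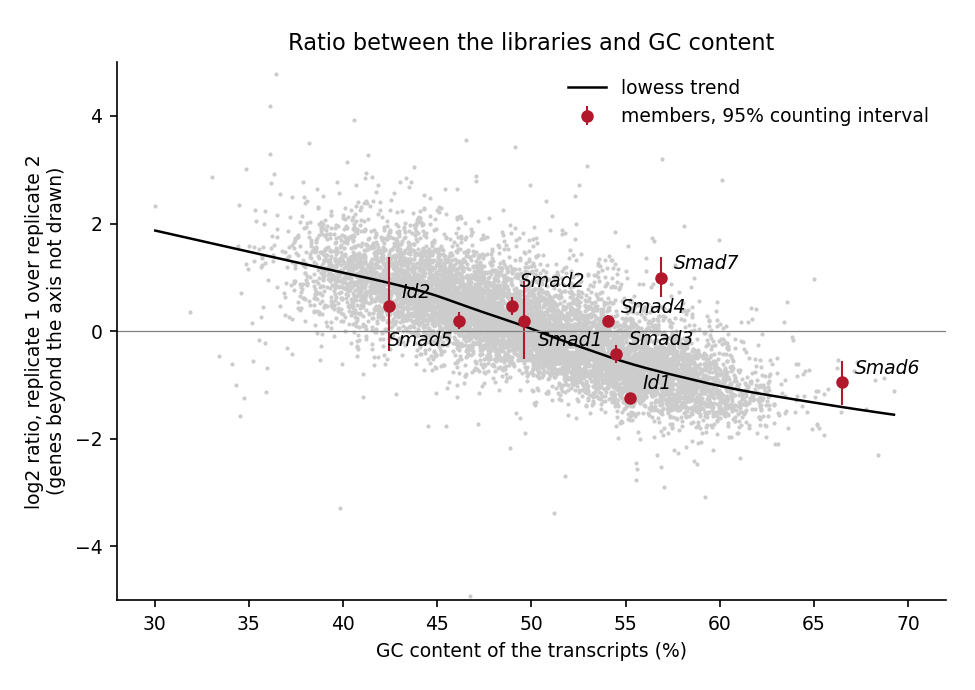
Log2 ratio of replicate 1 over replicate 2 against GC content (%) for protein-coding genes averaging 100 reads or more (grey), their lowess trend (black line) and the 9 members with a mean of at least 10 reads (red, with 95% counting intervals). Smad7 and Smad4 lie above the trend and Id1 below it, while Smad1, Smad3 and Smad2 lie nearest to it.

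Other genes of the pathway were read from 9 lists holding 94 genes, of which 44 reached 1 TPM in both libraries and 19 had no read. That share, 46.8%, was near the 45.5% of protein-coding genes, and the median of the lists, 0.603 TPM, was near their 0.6 TPM. Of the 35 ligands, co-receptors and antagonists, 6 reached 1 TPM and 15 had no read. Of 22 ligands 4 reached 1 TPM: Tgfb1, the founding TGF-beta ligand, averaged 94.4 ± 56.1 TPM (54.7 and 134 TPM in replicates 1 and 2), and next came Gdf11 at 2.84 TPM and Tgfb3 at 2.32 TPM. Bmp2, a BMP ligand, had 0 reads in replicate 1 and 22 in replicate 2, and Bmp4 had 2 and 0. Of 6 co-receptors 1 reached 1 TPM, Tgfbr3 (betaglycan) at 1.52 TPM, followed by Eng at 0.125 TPM and Rgma at 0.01 TPM; Rgmb, Hfe2 and Tdgf1 had no read. Of 7 antagonists 1 did, Fstl3 at 1.49 TPM, followed by Bambi at 0.715 TPM and Fst at 0.065 TPM; on complete coding transcripts Fstl3 had 0.58 TPM, below Bambi.

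Receptors of both branches were present at low level. Of 7 type I receptors 4 reached 1 TPM. Acvr1b, an activin receptor, averaged 8.72 TPM, Tgfbr1, the TGF-beta type I receptor, 5.56 TPM and Bmpr1a, a BMP receptor, 4.25 TPM. Bmpr1a had 1.99 TPM on complete coding transcripts, while Acvr1b and Tgfbr1 were unchanged. Of 5 type II receptors 3 reached 1 TPM. Amhr2, the receptor of anti-Müllerian hormone, averaged 8.81 TPM on 2.24 and 15.4 TPM in replicates 1 and 2, Bmpr2 averaged 6.91 TPM and Acvr2a 3.56 TPM. On complete coding transcripts Bmpr2 was the higher, at 6.79 TPM, with Amhr2 at 4.47 TPM. Tgfbr2, the type II receptor that binds TGF-beta itself, had 0.06 and 0.92 TPM from 7 and 59 reads. So Tgfb1 RNA was among the higher of these genes and Tgfbr2 RNA was under 1 TPM in both libraries.

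Of the listed genes that act inside the cell, the SMAD regulators were detected most often. Of 17 SMAD regulators 15 reached 1 TPM, led by the deubiquitinases Usp9x at 148 TPM and Usp15 at 109 TPM and by Hgs, an endosomal adaptor, at 81.5 TPM; Pmepa1 had no read. On complete coding transcripts Usp9x had 51.8 TPM, below Usp15 at 109 TPM and Rnf111, a ubiquitin ligase, at 59.6 TPM. Hgs had 37.6 TPM on such transcripts. Of 10 SMAD-binding transcription factors and co-activators 7 did, led by Sp1 at 50.6 TPM, Zeb1 at 40.8 TPM and Ep300 at 38.4 TPM. On complete coding transcripts Ep300 came first at 36.0 TPM, with Sp1 at 16.3 TPM and Zeb1 at 11.6 TPM. Of 7 bHLH genes, the partners that ID proteins sequester or compete with, 5 did. Tal1 averaged 188 ± 28.7 TPM, the E protein gene Tcf3 56.0 ± 37.7 TPM and Tcf4 51.4 ± 13.7 TPM, while Myod1 had no read. Counted on complete coding transcripts, Tcf4 had 21.6 TPM, Tcf3 49.7 TPM and Tal1 188 TPM. Id1 lay among these partners, at 76.3 and 205 TPM beside 208 and 167 TPM for Tal1 and 29.3 and 82.6 TPM for Tcf3.

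The other known target genes were lower than Id1. Of 16 genes on the list 6 reached 1 TPM, led by Junb at 25.2 ± 16.2 TPM, Skil at 11.1 ± 2.52 TPM and Cdkn1a at 9.52 ± 4.14 TPM. Ccn2 and Tgfbi had no read. The median of the target list was 0.463 TPM, against 0.6 TPM over protein-coding genes, so the level of Id1 was not shared by the list.

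**Figure D5:**
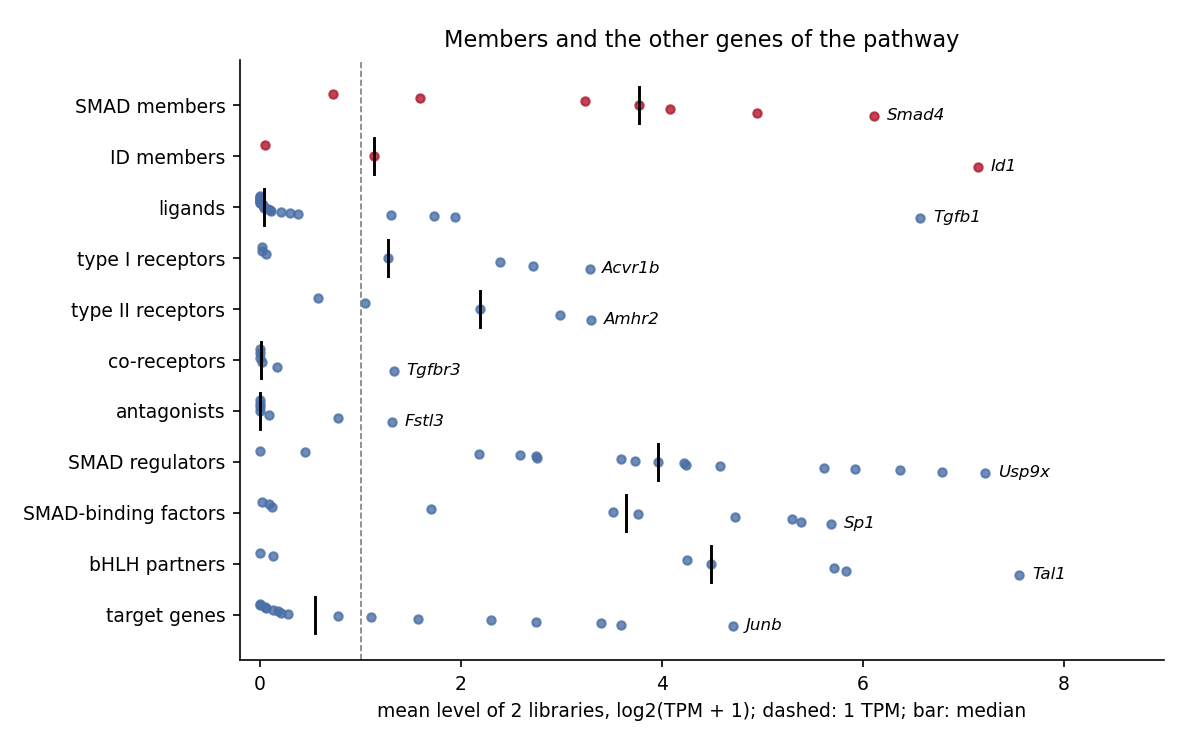
Mean level over the 2 libraries, log2(TPM + 1), of the SMAD and ID members (red) and of the other pathway genes by list (blue), each point a gene, with black bars for list medians and the highest gene of each row named. SMAD regulators, SMAD-binding factors and bHLH partners lie mostly above the dashed line at 1 TPM; ligands, co-receptors and antagonists lie mostly below it.

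The genes nearest in level to Smad4 were Kcmf1 (66.8 and 70.5 TPM in replicates 1 and 2), Prpf40b (66.7 and 69.4 TPM) and Tuba1c (66.1 and 71.8 TPM). Near to Id1 were Hbq1b (78.7 and 205 TPM) and Fam168b (79.0 and 206 TPM). Nearness was the Euclidean distance of log2(TPM + 1) among protein-coding genes over 2 libraries, which shows a like level and a like ratio between the libraries and no more. Hbq1b is a theta-globin gene.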

How the data were processed

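PolyA RNA of MEL cells in 2% DMSO for 5 days was read single-end in 2 libraries. The build was mm10 and the annotation GENCODE M4, per the submitters' file lists; no source used here names the program. Gene and transcript tables came from the authors. Per the file headers they hold expected counts (estimated reads, unscaled), TPM and FPKM, posterior means, credibility bounds (used as a score; their level is not stated). The percent of each gene held by each transcript was deposited by the authors in the transcript tables. Estimation splits reads among overlapping transcripts, and TPM raises short ones.

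Symbols, classes, coordinates and sequences came from GENCODE M21 (same assembly), matched by ID: 42462 of 43346 genes. Another 26345 rows name no gene (0.0296% and 0.0465% of reads). A count of 0 allows 0.115 and 0.212 CPM in replicates 1 and 2 (3 counts, counting error alone). Expected counts were rounded and scaled with edgeR 4.0.16 TMM (prior count 1) or DESeq2 1.42.0 in R 4.3.3; other steps used Python 3.11.15, pandas 2.3.3 and statsmodels 0.14.6. Scaling was tested on simulated counts without a GC trend, so that check does not cover the GC trend between these libraries. With 1 group, no test was made. A GC value was had for 99.0% of genes (lowess span 0.3). Members and lists were chosen with earlier results of these data known. Named were every member, transcripts with at least 10% of a gene, Smad9, Id4, the 3 highest genes of each list, its genes without reads where 3 or fewer, and the 3 genes nearest to Smad4 and Id1, of which 1 is not reported here; Id1-202, Smad4-202, Bmp2, Bmp4, Tgfbr2, Rnf111 and the marker genes were added after their values were seen. Alternatives were other limits, units, scalings and each library alone.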

Additional observations from a re-analysis of the deposited data

How the results depend on the processing

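No paired analysis was possible because there is 1 group. The count of members at or above 1 TPM in both libraries stayed within 1.5 times its value under 6 alternatives. Pathway genes at that level numbered 44, and 27 at 5 TPM. The ratio of BMP-class over TGF-beta-class receptor SMADs averaged 0.296, 0.605 by estimated reads and 0.443 on complete coding transcripts, with 0.252 to 0.341 for single libraries. The share of Smad4 in SMAD TPM averaged 49.6%, 40.5% by reads and 38.1% on complete coding transcripts. Members at least 2-fold apart were 1 (Id1), 2 by total reads (Smad6 added) and 2 without the filter on low counts (Id3 added, at 2 and 0 reads); with the GC trend subtracted the count was again 1, but Smad7 in place of Id1. Detected members with under 50% of TPM on complete coding transcripts were 5, and 0 by reads. They were 6 when the coding sequence had to be at least 90% of the longest. Rescaling to nuclear protein-coding genes raised the mean TPM of all 10 members 1.65- to 1.83-fold, Smad1 to 1.11 TPM. By CPM, which does not divide by length, Smad5 ranked 3 and Smad2 ranked 5. Cause was not tested beyond the construction of each alternative. Shallow reads limit Smad1, Id2 and Id3. The deposited bounds limit the order of transcripts within Smad2 and Smad3 and, in replicate 2, Smad5. In replicate 1 they also limit the order of Smad4-203 and Smad4-205.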
